A study of Homo sapiens with 18 samples.

Results

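Open chromatin was examined around 7 genes of NF-kB and IL6-STAT3 signalling, NFKB1, NFKBIA, TNFAIP3, CXCL8, IL6, STAT3 and SOCS3, in 18 ATAC-seq peak lists of the human lung adenocarcinoma line PC9. ATAC-seq marks accessible DNA as the places where a transposase can insert sequencing adapters. Peaks of the 18 libraries on chromosomes 1 to 22 and X were merged into 79483 regions wherever they shared at least 1 bp. A region belonged to a gene when it overlapped the gene body or the 50 kb on either side of it (hg19), and 59 regions did. The NFKB1 window held 5 of them, NFKBIA 9, TNFAIP3 11, CXCL8 6, IL6 7, STAT3 10 and SOCS3 11.

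PC9 cells grow on mutant EGFR signalling, and erlotinib inhibits the EGFR kinase. The libraries formed 6 groups of 3, marked a, b and c in the labels. Drug-tolerant persister cells (DTP) had survived 8 days in 1 µM erlotinib, and their counterpart was the unsorted PC9 population given DMSO. The other 4 groups were PC9 cells given 1 µM erlotinib or DMSO for 12 h and then sorted by flow cytometry with Aldefluor, a dye reaction that reports aldehyde dehydrogenase (ALDH) activity: ALDH-high erlotinib, ALDH-high DMSO, ALDH-low erlotinib and ALDH-low DMSO. All came from 1 cell line and were frozen and thawed before the assay. Whether the letters stand for separate cultures is not stated, so every p-value here reflects library-to-library spread that could be technical.

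NF-kB is a dimer of Rel-family proteins, among them the product of NFKB1, that is held in the cytoplasm by inhibitors such as IkBα, the product of NFKBIA. Inflammatory signals destroy the inhibitor, and the freed dimer then switches on its own brakes, NFKBIA and TNFAIP3 (A20, a ubiquitin-editing enzyme), and the cytokine genes CXCL8 and IL6. IL-6 in turn activates the transcription factor STAT3 through JAK kinases, and STAT3 induces its own brake, SOCS3. EGFR signalling also feeds STAT3 in lung cancer cells.

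The promoters of 5 of the genes are shown because they match DNA elements that NF-kB or the partner factor AP-1 is known to bind, and because the regions described first lie over these starts. A match is a description of letters, not a bound site. They are the 250 bases before the annotated start in RefSeq (GRCh38.p14, a later build than the peak files, so they were not placed on the peaks), 5′ to 3′ on the gene's strand. Capitals mark matches to the kB consensus, except in CXCL8, where they mark the AP-1 element TGANTCA.
NFKB1 (chr4:102501109-102501358, plus strand): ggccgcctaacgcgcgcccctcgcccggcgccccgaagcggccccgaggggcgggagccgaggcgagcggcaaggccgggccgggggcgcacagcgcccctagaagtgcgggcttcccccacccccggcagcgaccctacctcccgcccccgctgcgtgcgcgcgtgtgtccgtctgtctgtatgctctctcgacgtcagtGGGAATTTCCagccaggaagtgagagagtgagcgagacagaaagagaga
NFKBIA (chr14:35404750-35404999, minus strand): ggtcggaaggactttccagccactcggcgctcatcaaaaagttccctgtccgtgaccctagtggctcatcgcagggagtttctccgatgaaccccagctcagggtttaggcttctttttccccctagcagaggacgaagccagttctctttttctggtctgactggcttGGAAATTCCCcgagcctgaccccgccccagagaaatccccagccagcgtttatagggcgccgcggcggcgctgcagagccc
TNFAIP3 (chr6:137867009-137867258, plus strand): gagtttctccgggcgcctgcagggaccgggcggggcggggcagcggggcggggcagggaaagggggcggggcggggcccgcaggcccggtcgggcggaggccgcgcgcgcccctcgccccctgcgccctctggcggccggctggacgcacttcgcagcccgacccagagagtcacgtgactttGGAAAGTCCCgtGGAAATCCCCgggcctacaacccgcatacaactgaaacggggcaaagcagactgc
IL6 (chr7:22726950-22727199, plus strand): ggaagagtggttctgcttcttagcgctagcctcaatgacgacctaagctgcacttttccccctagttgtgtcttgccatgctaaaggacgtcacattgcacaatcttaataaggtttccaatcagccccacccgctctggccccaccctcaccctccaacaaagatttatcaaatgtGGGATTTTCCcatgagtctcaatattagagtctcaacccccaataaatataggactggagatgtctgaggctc
CXCL8 (chr4:73740319-73740568, plus strand): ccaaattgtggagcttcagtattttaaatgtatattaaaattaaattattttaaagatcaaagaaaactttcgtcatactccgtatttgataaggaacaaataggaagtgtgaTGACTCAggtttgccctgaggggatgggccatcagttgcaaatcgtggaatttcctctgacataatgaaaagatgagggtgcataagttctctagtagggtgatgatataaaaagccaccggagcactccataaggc
RefSeq lists 9 promoters for the 7 genes, and 4 of the 9 matched the kB consensus on either strand, against 9.96% of all 35116 promoters. The NFKB1 match lies 49 to 40 bases before the start, the NFKBIA match 81 to 72, the IL6 match 73 to 64, and the TNFAIP3 promoter has matches at 67 to 58 and at 55 to 46. The AP-1 element was found in 1 of the 9, that of CXCL8 (6.57% of all promoters), and the palindromic STAT element TTCNNNGAA in 0 of the 9 (6.57% of all promoters). Both strands were searched, and no match overlapped another. Where no match was found, as for the kB consensus in CXCL8, these letters are not in this window, which says nothing more about the factor.

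The 59 regions were called in as few as 1 and as many as 18 libraries. All 18 libraries held 7 of them (11.9%, against 17.7% of all regions), and a single library held 11 (18.6%, against 21.2%). Of the 59, 12 overlapped a gene body, 22 lay upstream of it and 25 downstream, and their median width was 1087 bp, against 999 bp over all regions. A library held 28 ± 4 of the 59 regions in DTP, 31 ± 1 in PC9, 30.7 ± 2.31 in ALDH-high erlotinib, 27 ± 6.25 in ALDH-high DMSO, 28 ± 2.65 in ALDH-low erlotinib and 23 ± 2 in ALDH-low DMSO (mean ± SD, n = 3 each). These numbers stand beside lists of 26225 to 45241 peaks, shortest in ALDH-low DMSO and longest in DTP. Read depth is unknown, so a peak that is missing from a list was not called there and may still be open, and the part of list length in each result was not tested except where lists of equal size are given. A window can also hold elements of other genes: RefSeq places MANBA within 50 kb of NFKB1, STAT5B, STAT5A and CAVIN1 within 50 kb of STAT3, PGS1 within 50 kb of SOCS3, and no other protein-coding gene within 50 kb of the remaining 4. Exons and introns were not assigned here.

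**Figure D1:**
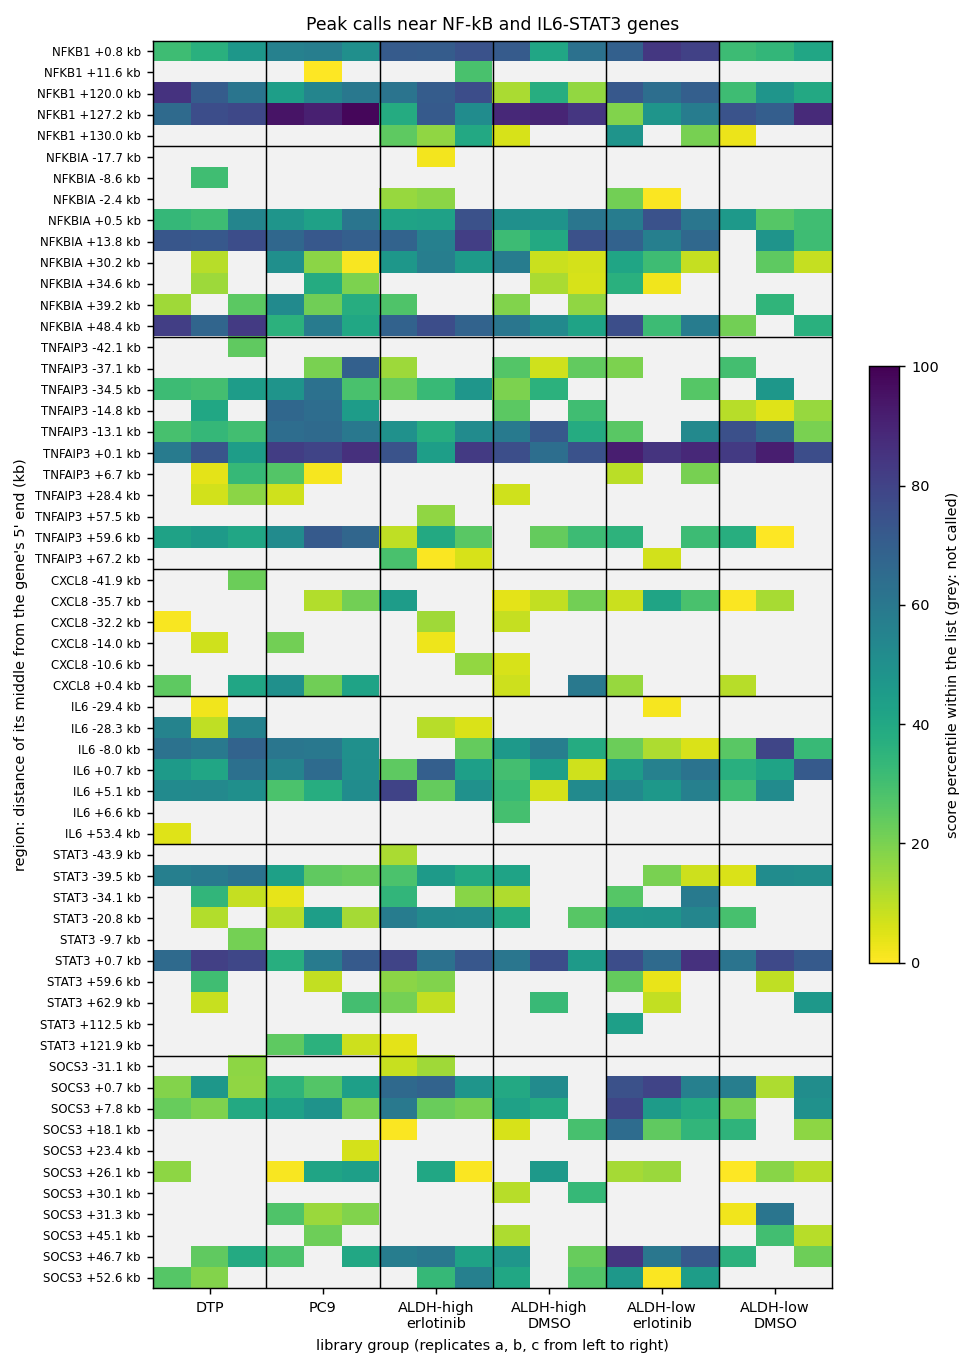
Each row is 1 of the 59 regions, named by gene and by the distance in kb of its middle from the gene's 5′ end (negative: upstream). Each column is 1 library, in groups of 3, and the colour is the percentile of the region's best peak score within that library's list (100 is the highest score), with grey where no peak was called. The rows over the starts of NFKB1, NFKBIA, TNFAIP3, IL6 and STAT3 are filled in all 18 columns, and 11 rows are filled in 1 column.

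The starts of 5 of the 7 genes were called as peaks in every library. Regions over the 5′ ends of NFKB1 (chr4:103421486-103424029), NFKBIA (chr14:35872326-35874578), TNFAIP3 (chr6:138186525-138189698), IL6 (chr7:22765634-22767680) and STAT3 (chr17:40539299-40541361) were held by all 18, and that of SOCS3 (chr17:76355171-76357512) by 17, missing from the c library of ALDH-high DMSO. The start of CXCL8, the gene of the neutrophil-attracting chemokine IL-8, was called in 9 of the 18 (chr4:74605927-74606865). It was called in 2 of 3 DTP libraries and 3 of 3 PC9 libraries. After sorting it was called in 0 of 3 ALDH-high erlotinib libraries, 2 of 3 ALDH-high DMSO libraries, 1 of 3 ALDH-low erlotinib libraries and 1 of 3 ALDH-low DMSO libraries, and the difference between erlotinib and DMSO did not pass the exact permutation test (6 libraries each, p = 0.56, adjusted p = 0.783).

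TNFAIP3 had the widest of the 59 regions over its start, 3174 bp, and the highest-ranking one, with a median score percentile of 77.9. The NFKB1 region with the highest rank was another, 127 kb past its 5′ end and beyond the gene (chr4:103548553-103549783), with a median percentile of 75.4 and a call in all 18 libraries. NFKBIA was alike, its highest-ranking region lying 13.8 kb past the 5′ end (chr14:35859606-35860881) at a median percentile of 68.3 in 17 libraries. For IL6 it was the region 5.08 kb past the start (chr7:22770514-22771654), with a median percentile of 50.1 in 17 libraries. In CXCL8, STAT3 and SOCS3 the region over the start ranked highest, with median percentiles of 24.9, 71.7 and 47.7 over the libraries that held it. The percentiles are ranks of the authors' peak scores within each list, are given as a description, and show no change between lists of different lengths.

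**Figure D2:**
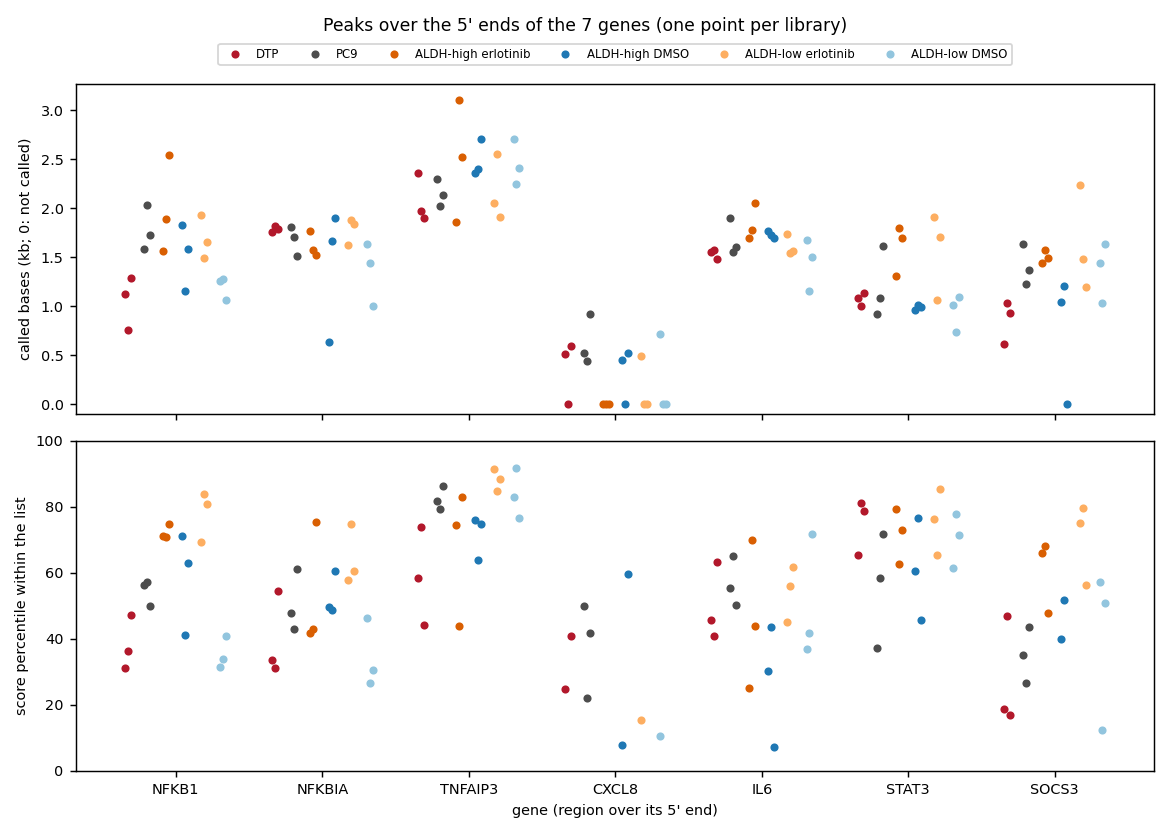
Peaks over the 5′ ends of the 7 genes, 1 point per library, coloured by group with DTP at the left of each gene and ALDH-low DMSO at the right. The upper panel gives the bases called within the region in kb (0: not called) and the lower panel the score percentile within the list. The CXCL8 start is at 0 in 9 of the 18 libraries, the TNFAIP3 points sit highest in the upper panel, and the DTP points of NFKB1 and SOCS3 lie below all PC9 points in the upper panel.

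DTP against PC9 asks how the survivors of 8 days of drug differ from the population they came from. Over the gene starts, the peaks of NFKB1, which encodes the p105 precursor of the p50 subunit, were narrower in DTP. They covered 1126, 755 and 1290 bp in DTP libraries a, b and c, against 1586, 2032 and 1728 bp in PC9 libraries. The means were 1057 ± 274 bp in DTP and 1782 ± 228 bp in PC9 (SD, n = 3 each), and every DTP library was below every PC9 library. The SOCS3 start, of the gene whose product blocks JAK kinases, showed the same order. Its peaks covered 616, 1032 and 924 bp in DTP libraries, against 1628, 1221 and 1371 bp in PC9 libraries, or 857 ± 216 bp in DTP and 1407 ± 206 bp in PC9. The starts of NFKBIA, TNFAIP3, IL6 and STAT3 overlapped between the groups. Of the 6 start regions held by all 6 libraries, 2 were thus lower without overlap and 0 higher, beside 6.64% of 24186 such regions lower and 15.1% higher over the genome. With 3 against 3 libraries the smallest exact permutation p is 0.1, so this comparison carries no p-value.

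A region was counted as gained when every library of the first group and no library of the second had a peak in it, and as lost when the reverse held. IL6, which encodes the cytokine interleukin-6, gained a region in DTP. The region 28.3 kb upstream of the gene (chr7:22737218-22738270) was called in all 3 DTP libraries, at score percentiles of 55.2, 9.51 and 55.6, and in 0 of 3 PC9 libraries. Outside DTP it appeared in libraries b and c of ALDH-high erlotinib, at percentiles of 10.8 and 5.73, and in no other sorted library. It was 1 of 48 regions near the 7 genes gained in DTP (2.08%), beside 6.75% of 65904 regions over the genome.

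The STAT3 and SOCS3 windows each lost a region in DTP. The one 122 kb past the STAT3 5′ end, beyond the gene (chr17:40418714-40419566), was in 0 of 3 DTP libraries and in all 3 PC9 libraries, at percentiles of 24.7, 35.8 and 7.74. The SOCS3 region, 31.3 kb past the 5′ end (chr17:76325157-76326231), was likewise in 0 of 3 DTP libraries and in 3 PC9 libraries, at 27.7, 15.1 and 19.0. Among sorted cells the STAT3 region was called in 1 library, a of ALDH-high erlotinib, and the SOCS3 region in 2 libraries, a and b of ALDH-low DMSO. These 2 of 48 (4.17%) stand beside 3.68% of all regions, so the share near the 7 genes was close to that of the genome. Leaving out 1 library loosens the rule for gained and lost, so the counts can then only stay or rise. Leaving out DTP library b, the number lost was 5, leaving out PC9 library a it was 4, and leaving out DTP library c the number gained was 2. When every list was shortened to its 26225 best-scoring peaks, so that all had equal size, neither of these 2 regions nor the IL6 region separated the groups. Instead 2 regions of TNFAIP3 were called in no DTP list and all PC9 lists, 14.8 and 13.1 kb upstream of the gene. Shortening took more peaks from DTP lists, and no genome share at equal size is given beside these 2.

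Summed over each window, the bases called as peaks were fewer in DTP at NFKB1, TNFAIP3 and SOCS3, and more at IL6, although DTP lists were the longer ones. The SOCS3 window had 3115, 3427 and 3093 called bases in DTP libraries a, b and c, against 5253, 4592 and 5728 in PC9 libraries. That is 3212 ± 187 in DTP and 5191 ± 571 in PC9, the widest gap of the 7 (a difference of -1979 bases). The TNFAIP3 window had 4829, 5961 and 5763 called bases in DTP, against 6412, 6657 and 7295 in PC9. The NFKB1 window had 2834, 2524 and 2907 in DTP, against 3104, 4142 and 3512 in PC9. In each of these 3 the groups did not overlap, and they did not in lists of equal size either, where DTP minus PC9 was -2221 bases at SOCS3, -2895 at TNFAIP3 and -1268 at NFKB1. As deposited the NFKB1 difference was -831 bases, and -553 without PC9 library b. At IL6 the order was the reverse, with 4895, 4955 and 3822 called bases in DTP and 3716, 3231 and 3044 in PC9, a difference of 1227 bases. The region 28.3 kb upstream supplied 857 ± 186 of those bases in DTP and 0 in PC9, and in lists of equal size the IL6 difference was 149 bases and the groups overlapped. NFKBIA, CXCL8 and STAT3 overlapped in the lists as deposited, STAT3 with a wide spread in DTP (1593, 5045 and 3211 called bases, against 3617, 4087 and 4052 in PC9). In lists of equal size NFKBIA differed by -1910 bases, without overlap. Shortening took more peaks from DTP lists than from PC9 lists, and no share of tiles at equal size stands beside these differences. In the lists as deposited, 3 of the 7 windows were lower without overlap and 1 was higher, whereas over 20787 tiles of 100 kb, 8.43% were lower and 23.6% higher. The windows, of 104 to 217 kb, are longer than the tiles.

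**Figure D3:**
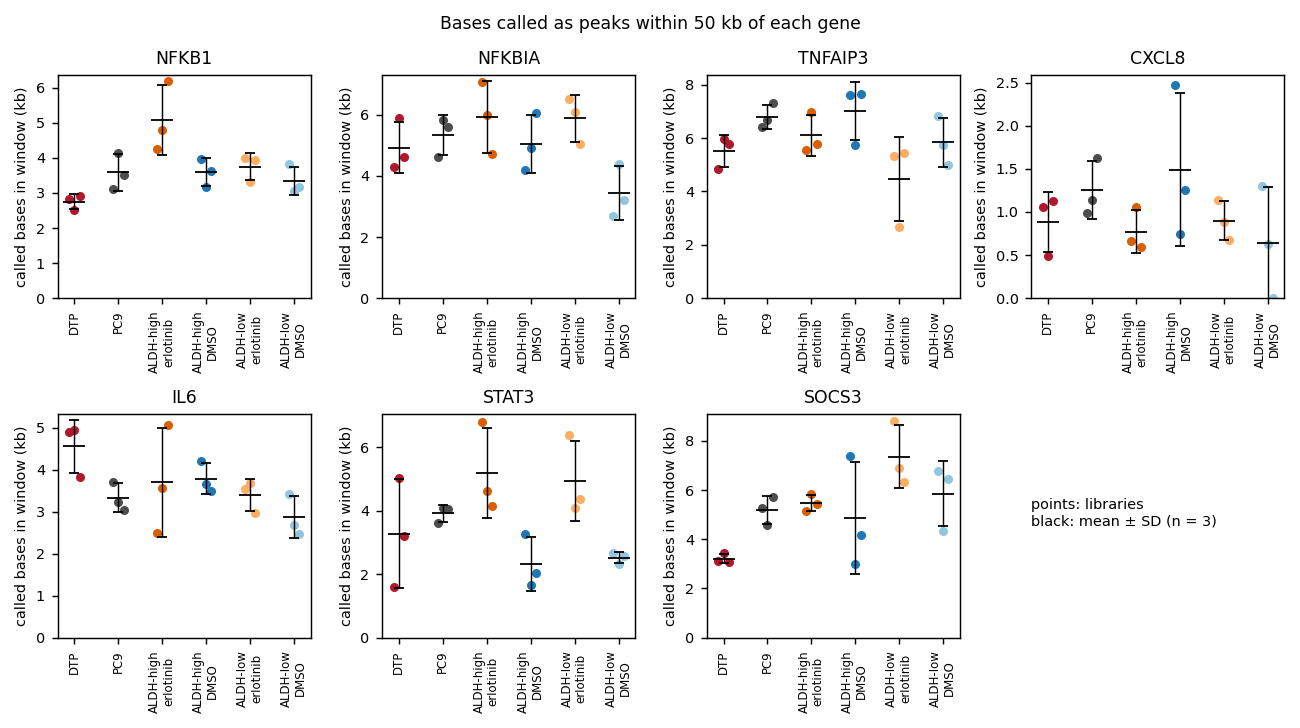
Bases called as peaks within each gene's window, in kb, 1 point per library with the group mean and SD in black (n = 3). The DTP points lie below all PC9 points at NFKB1, TNFAIP3 and SOCS3 and above them at IL6. At STAT3 the 6 erlotinib points of sorted cells lie above the 6 DMSO points.

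Erlotinib against DMSO in sorted cells asks what 12 h of drug did in each ALDH fraction. The clearest difference in calls lay upstream of TNFAIP3. A region 14.8 kb before the gene (chr6:138172297-138174027) was called in 0 of 6 erlotinib libraries and in 5 of 6 DMSO libraries, missing only from the b library of ALDH-high DMSO. In the 5 DMSO libraries that held it the percentiles lay between 5.04 and 30.5. Its scores in ALDH-low DMSO libraries a, b and c were 79.8, 74.2 and 84.9, where no deposited peak is below 70. In unsorted cells it was in 1 of 3 DTP libraries, at 40.6, and in 3 of 3 PC9 libraries, at 66.6, 64.4 and 44.9. Counting unsorted and sorted cells together, at 8 days and 12 h of drug, the region was not called in 8 of the 9 erlotinib libraries. It was called in 8 of the 9 given DMSO, and this pooled count was not tested. Over the 12 sorted libraries its exact permutation p was 0.02 (labels exchanged within fractions, two-sided), and 0.198 after Benjamini-Hochberg adjustment over 31082 regions. Adjusted only over the 6480 regions whose calls could have reached an exact permutation p under 0.05, a choice made after seeing the data, it was 0.0413. Of those 6480 regions, 360 called less often and 2775 called more often also had such an adjusted p under 0.05. These are the numbers with an unadjusted exact permutation p under 0.05, so the narrower set is no stricter than the unadjusted threshold.

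**Figure D4:**
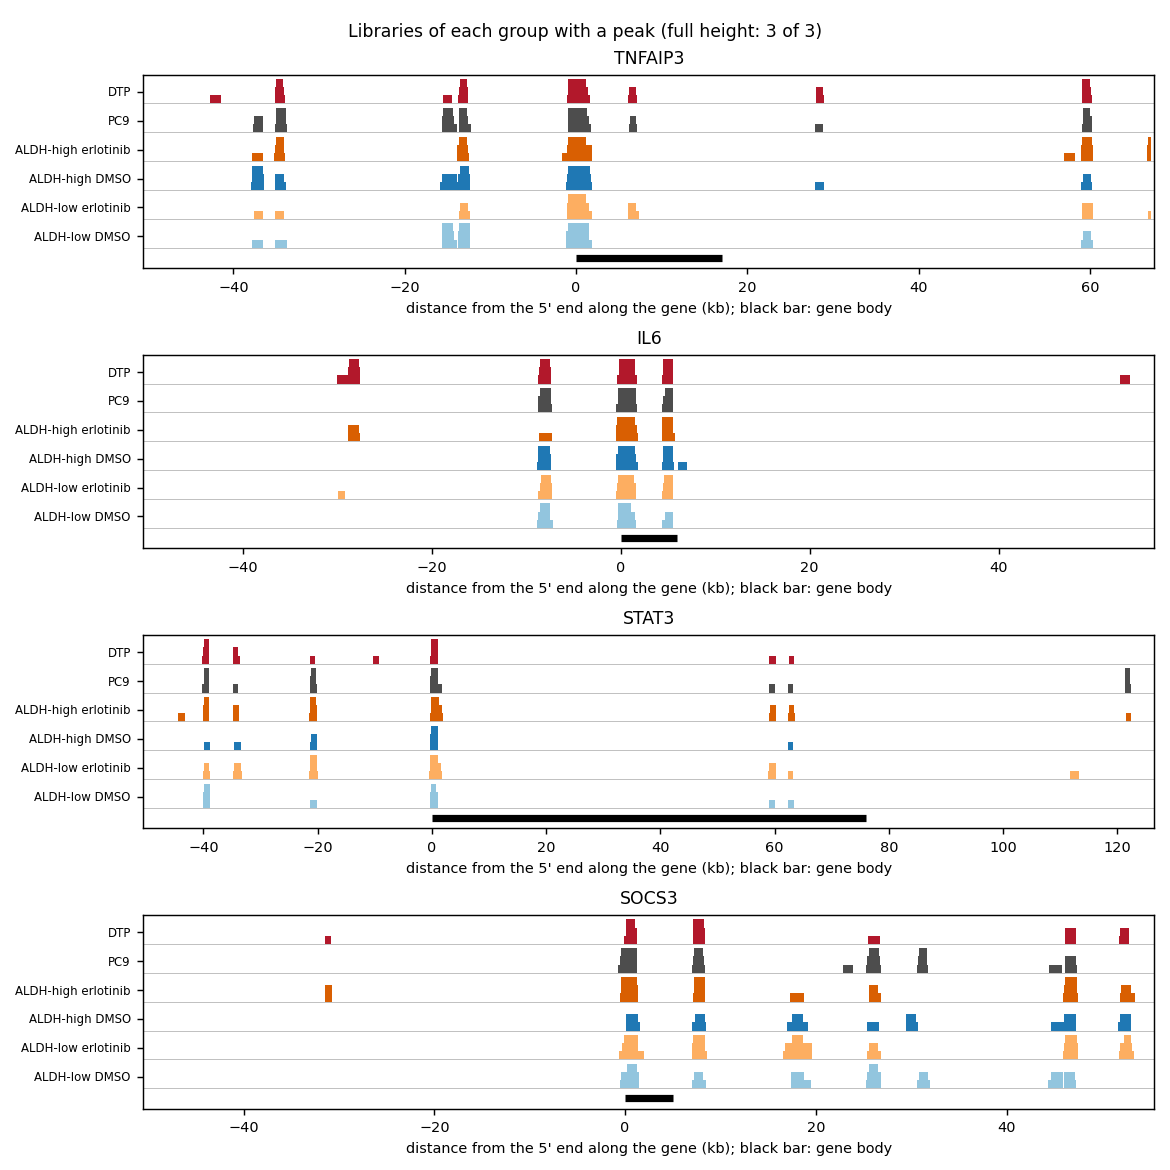
Peak calls along the TNFAIP3, IL6, STAT3 and SOCS3 windows. The horizontal axis is the distance in kb from the gene's 5′ end along the gene, the black bar is the gene body, and the height of a bar is the number of libraries of a group, of 3, with a peak there. At 14.8 kb upstream of TNFAIP3 both erlotinib rows are empty and both DMSO rows are filled, and at 28.3 kb upstream of IL6 the DTP row is full and the PC9 row empty.

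The neighbouring region 13.1 kb upstream of TNFAIP3 was called in 5 of 6 erlotinib libraries and in 6 of 6 DMSO libraries, and it is named here after its values were seen. The start itself was called in all 12, with 2495 ± 626 bp called in ALDH-high erlotinib, 2488 ± 189 bp in ALDH-high DMSO, 2171 ± 333 bp in ALDH-low erlotinib and 2457 ± 232 bp in ALDH-low DMSO. Of the 11 TNFAIP3 regions, the one 14.8 kb upstream had the largest difference in mean called bases, 0 with erlotinib and 1147 with DMSO.

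In the ALDH-low fraction, that TNFAIP3 region was the 1 region of 40 lost with erlotinib (2.5%, beside 0.887% of 52872 regions), and 1 of 40 was gained (2.5%, beside 6.82%). The gained region lay 52.6 kb past the SOCS3 5′ end (chr17:76303674-76305134), with percentiles of 46.6, 0.488 and 44.3 in ALDH-low erlotinib and no call in ALDH-low DMSO. It was also called in 2 of 3 libraries of ALDH-high erlotinib, of ALDH-high DMSO and of DTP, but in 0 of 3 of PC9, and its exact permutation p over the sorted libraries was 0.26. In the ALDH-high fraction 1 of 49 regions was gained (2.04%, beside 4.52% of 56812) and 0 were lost (beside 0.998%). That gained region lay 67.2 kb past the TNFAIP3 5′ end (chr6:138254785-138255559), with low percentiles of 28.8, 0.778 and 6.07 in ALDH-high erlotinib. It was also in 1 of 3 ALDH-low erlotinib libraries, at 6.75, and in no other library of any group (exact permutation p = 0.05, adjusted p = 0.351). Leaving out 1 library, which loosens the rule so that counts can only stay or rise, raised these counts in several cases. In ALDH-low cells 2 were gained and 2 lost without DMSO library a, 2 lost without DMSO library c, and 3 gained without erlotinib library b or c. Among ALDH-high cells the counts were 3 gained and 1 lost without DMSO library a, 3 lost without DMSO library b, 2 gained and 2 lost without erlotinib library a, and 4 gained and 1 lost without erlotinib library c. Whether the fractions differed in their response at these regions was not tested. Of 30 regions near the 7 genes that could be tested over the 12 libraries, 0 were called more often with erlotinib at an unadjusted exact permutation p under 0.05, beside 8.93% of 31082 regions, and 1 less often, beside 1.16%. Only 6 of the 30, and 6480 of the 31082, had calls that could reach such a p under any labels. No region, near the 7 genes or elsewhere, had an adjusted p under 0.05, and at an unadjusted p under 0.05 the genome had 2775 regions called more often and 360 less often.

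Outside the naming rule, and picked after their values were seen, 3 more regions are described. A region 2.41 kb upstream of NFKBIA (chr14:35875898-35876925) was in 4 of 6 erlotinib and 0 of 6 DMSO libraries, and in no DTP or PC9 library (exact permutation p = 0.08, adjusted p = 0.397). One 8.02 kb upstream of IL6 (chr7:22757325-22758631) was in 4 of 6 erlotinib and 6 of 6 DMSO libraries, missing from ALDH-high erlotinib a and b (exact permutation p = 0.4, adjusted p = 0.774). In lists of equal size it was lost with erlotinib in both fractions. As deposited, its percentiles were 5.71 to 22.6 in ALDH-low erlotinib and 25.6 to 79.3 in ALDH-low DMSO. Shortening took more peaks from erlotinib lists than from DMSO lists, and no genome share of regions lost at equal size is given. One 20.8 kb upstream of STAT3 (chr17:40561194-40562330) was in 6 of 6 erlotinib and 3 of 6 DMSO libraries (exact permutation p = 0.2, adjusted p = 0.553). Other regions outside the rule were as uneven. One 45.1 kb past the SOCS3 5′ end was in 0 of 6 erlotinib and 3 of 6 DMSO libraries, and one 130 kb past the NFKB1 5′ end in 5 and 2 (exact permutation p = 0.2 and 0.26).

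By called bases, STAT3 was the 1 window of 7 that passed the test. In ALDH-high cells it had 6795, 4632 and 4144 called bases with erlotinib, against 3282, 1662 and 2023 with DMSO. In ALDH-low cells it had 6402, 4090 and 4362 with erlotinib, against 2666, 2321 and 2587 with DMSO. Every erlotinib library was above every DMSO library. The means were 5071 ± 1205 with erlotinib and 2424 ± 561 with DMSO (n = 6 each), a difference of 2647 bases (exact permutation p = 0.005, the smallest possible, adjusted p = 0.0400 over 20390 windows and tiles). More than 1 region contributed: the start supplied 612 bases of the difference, the regions 34.1 and 20.8 kb upstream 531 and 511, and one inside the gene, 59.6 kb past the start, 446. STAT5B, STAT5A and CAVIN1 also lie within 50 kb of STAT3, and the regions outside STAT3 were not assigned to any gene. Over the start of STAT3, whose product is the transcription factor activated downstream of IL-6, peaks covered 1598 ± 261 bp in ALDH-high erlotinib and 989 ± 26.6 bp in ALDH-high DMSO, without overlap. In ALDH-low cells they covered 1558 ± 439 bp with erlotinib and 945 ± 187 bp with DMSO, and the groups overlapped. Erlotinib lists were longer, and 12.1% of all windows and tiles were higher at an adjusted p under 0.05 and 0.343% lower. In lists of equal size the STAT3 difference was 694 bases (exact permutation p = 0.115, adjusted p = 0.329), and the 20383 tiles had a median difference of 319 bases as deposited and 118 at equal size. The STAT3 window spans 176 kb, against 100 kb for a tile, and its difference as deposited was 1504 bases per 100 kb. The STAT3 call was lost when any 1 of 8 libraries was left out: a, b or c of ALDH-low DMSO, b or c of ALDH-high DMSO, a of ALDH-low erlotinib, and a or c of ALDH-high erlotinib. Over all 12 such fits the exact permutation p was 0.005 to 0.01 and the adjusted p 0.0411 to 0.0698.

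The other windows did not pass. NFKB1 had 4416 ± 995 called bases with erlotinib and 3470 ± 384 with DMSO (difference 946, exact permutation p = 0.015, adjusted p = 0.0729). The inhibitor gene NFKBIA had 5898 ± 881 with erlotinib and 4239 ± 1205 with DMSO (difference 1659, exact permutation p = 0.03, adjusted p = 0.109). These are the 2 genes, beside STAT3, with unadjusted p-values under 0.05, where 30.3% of all windows and tiles were higher and 1.47% lower. TNFAIP3 pointed the other way, with 5288 ± 1422 with erlotinib and 6427 ± 1106 with DMSO (difference -1139, exact permutation p = 0.085, adjusted p = 0.213). That difference is about the size of the one at the region 14.8 kb upstream alone. At equal list size it was -2131 bases (exact permutation p = 0.04, adjusted p = 0.180), and without library b of ALDH-low erlotinib -686 bases. SOCS3 differed by 1058 bases (adjusted p = 0.405), IL6 by 220 (adjusted p = 0.830) and CXCL8 by -231 (adjusted p = 0.758), all by the same exact test. The SOCS3 value was 1696 bases without library a of ALDH-high DMSO, 596 without library b of that group, 678 without library b of ALDH-low DMSO and 697 without library a of ALDH-low erlotinib. With equal list sizes, the unadjusted exact permutation p was under 0.05 for NFKBIA, higher with erlotinib (p = 0.01, adjusted p = 0.0881), and for TNFAIP3, lower, but not for NFKB1 or STAT3. With a minimum score of 100, NFKB1 and NFKBIA passed (exact permutation test, adjusted p = 0.0364 for both) and STAT3 did not (adjusted p = 0.0880). The median score of a sorted list was 160 to 178 with erlotinib and 141 to 153 with DMSO, so a fixed score may remove unlike shares of them. No share of windows and tiles passing is given for equal list sizes or for this score. Within fractions, 2 of 7 windows were higher without overlap in ALDH-low erlotinib than in ALDH-low DMSO, NFKBIA and STAT3, and 0 lower, beside 31.4% and 1.86% of 18631 tiles. In ALDH-high cells 2 of 7 were higher, NFKB1 and STAT3, and 0 lower, beside 23% and 2.23% of 19200 tiles. When lists had equal size these 4 separations were gone, and 2 others appeared: IL6 was lower without overlap with erlotinib in ALDH-low cells (difference -514 bases), and NFKBIA was higher in ALDH-high cells (difference 1025 bases). Shortening took more peaks from erlotinib lists than from DMSO lists, and no share of tiles at equal size stands beside these 2.

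Over the NFKB1 start in ALDH-low cells, peaks covered 1924, 1488 and 1653 bp with erlotinib, against 1252, 1280 and 1064 bp with DMSO. Their percentiles were 69.2, 83.8 and 80.7 with erlotinib and 31.5, 34.0 and 40.8 with DMSO. The widths did not overlap, and the ranks are a description. In ALDH-high cells the widths overlapped, at 1559, 1887 and 2544 bp with erlotinib and 1823, 1155 and 1584 bp with DMSO. NFKB1 was the 1 of 6 start regions wider without overlap in ALDH-low cells, beside 22.4% of 16026 regions, and STAT3 the 1 of 5 in ALDH-high cells, beside 16.8% of 19184. No start region was narrower without overlap in either fraction, beside 2.31% of regions in ALDH-low cells and 2.95% in ALDH-high cells. The direction at the NFKB1 start in DTP, narrower than PC9, was thus not that of 12 h of erlotinib in ALDH-low cells, and the difference between these comparisons was not tested.

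**Figure D5:**
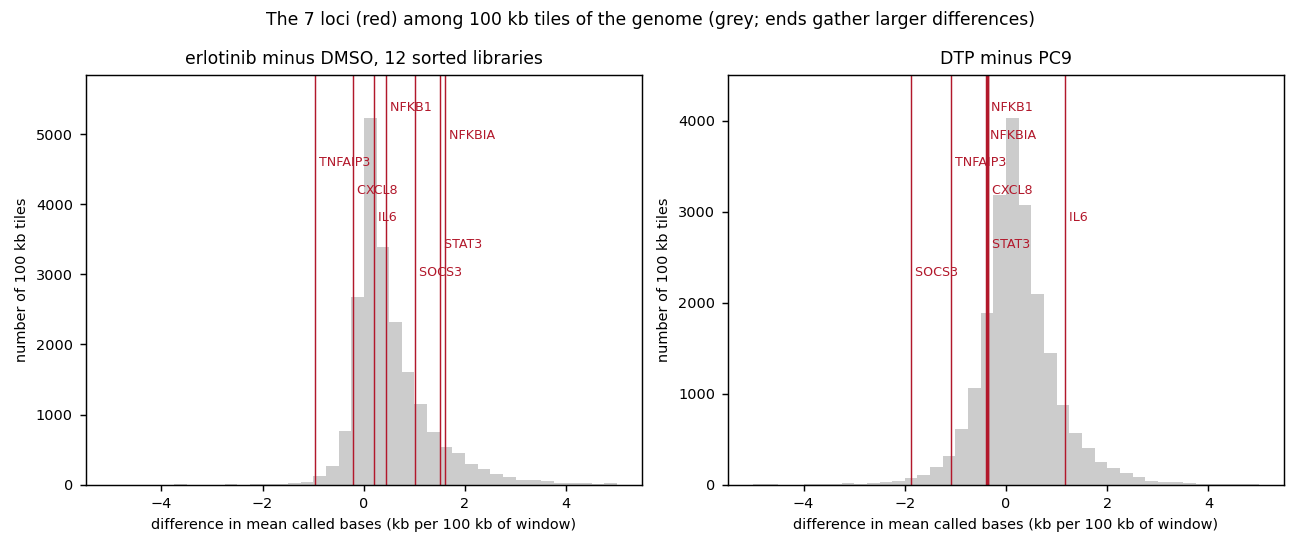
The grey bars count 100 kb tiles of the genome by their difference in mean called bases (kb per tile), with the end bars gathering larger differences, and the red lines are the 7 gene windows scaled to kb per 100 kb. At the left, erlotinib minus DMSO over 12 sorted libraries, NFKBIA lies at 1595 bases per 100 kb, STAT3 at 1504 and TNFAIP3 at -973. At the right, DTP minus PC9, IL6 lies at 1158 bases per 100 kb, TNFAIP3 at -1086 and SOCS3 at -1885.

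ALDH-high against ALDH-low asks whether the fractions differ under the same treatment. With DMSO, 0 of 40 regions near the 7 genes were gained and 0 lost in ALDH-high cells, beside 1.28% and 0.14% of 45634 regions. With erlotinib 0 of 47 were gained and 0 lost, beside 0.893% and 0.446% of 57338. Over the 12 libraries, with labels exchanged within treatments, 29 regions could be tested, and 0 were called more often and 0 less often in ALDH-high cells at an unadjusted exact permutation p under 0.05, beside 0.356% and 0.0285% of 28055 regions. Only 2 of the 29, and 2210 of the 28055, had calls that could reach such a p under any labels, so these counts say nothing about the rest. The smallest exact permutation p of the 29 was 0.26. Under the looser rule that comes with leaving out 1 library, up to 2 regions separated. With DMSO, 1 was gained without ALDH-low library a, 1 gained and 1 lost without ALDH-high library a, 2 gained and 1 lost without ALDH-high library b, and 1 lost without ALDH-low library c. With erlotinib, 1 was gained and 1 lost without ALDH-low library b or c or ALDH-high library c, and 1 gained and 2 lost without ALDH-high library a.

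By called bases, 2 of the 7 windows were higher in ALDH-high cells at an unadjusted p under 0.05 and 0 lower, beside 6.18% and 0.75% of windows and tiles. NFKB1 had 4336 ± 1063 in ALDH-high cells and 3551 ± 420 in ALDH-low cells (n = 6 each, difference 785, exact permutation p = 0.035, adjusted p = 0.624). TNFAIP3 had 6556 ± 979 in ALDH-high cells and 5159 ± 1375 in ALDH-low cells (difference 1398, exact permutation p = 0.035, adjusted p = 0.624). Without library c of ALDH-high erlotinib the NFKB1 difference was 506 bases. No window or tile in the genome had an adjusted p under 0.05 for the fractions. SOCS3 had the largest difference of the 7, with 5166 ± 1498 in ALDH-high cells and 6605 ± 1424 in ALDH-low cells (difference -1439, exact permutation p = 0.1, adjusted p = 0.709). With lists of equal size only 1 of the 7 windows had an unadjusted p under 0.05, and it was lower in ALDH-high cells: SOCS3 differed by -1928 bases (exact permutation p = 0.02, adjusted p = 0.641), NFKB1 by 316 (p = 0.48) and TNFAIP3 by 659 (p = 0.41). With erlotinib alone the SOCS3 values did not overlap, at 5169, 5835 and 5433 in ALDH-high cells and 8794, 6909 and 6346 in ALDH-low cells, as the 1 of 7 windows lower, beside 3.53% of 19325 tiles. NFKB1 and TNFAIP3 were the 2 higher with erlotinib, beside 6.78%. With DMSO alone SOCS3 overlapped, at 7401, 3001 and 4154 in ALDH-high cells and 6797, 4340 and 6443 in ALDH-low cells, and IL6 was the 1 window of 7 higher and 0 were lower, beside 11.8% and 1.29% of 17585 tiles. In lists of equal size NFKB1, TNFAIP3 and SOCS3 with erlotinib and IL6 with DMSO overlapped, whereas SOCS3 with DMSO was lower in ALDH-high cells without overlap (difference -1813 bases). With DMSO, shortening took more peaks from ALDH-high lists than from ALDH-low lists, and no share of tiles at equal size is given for the fractions. Over the gene starts, IL6 was the 1 of 5 wider without overlap in ALDH-high cells with DMSO and 0 were narrower, beside 8.61% and 3.15% of 16507 regions, and with erlotinib 0 of 6 were wider and 0 narrower, beside 6.48% and 5.75% of 23126.

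Across all 18 libraries the called bases of NFKBIA and STAT3 varied most alike (Pearson r = 0.675), the inhibitor of NF-kB beside the factor downstream of IL-6. Both also followed the bases called over the whole list (r = 0.621 for NFKBIA and 0.665 for STAT3). TNFAIP3 and CXCL8 came next (r = 0.552), with r of -0.288 and 0.00389 against the whole list. The libraries fall into the 6 groups and share their lists' lengths, so these values are a description without a test. The remaining 43 regions, not named by the rule, were held by 1 to 18 libraries (median 6) at median percentiles of 1.69 to 60.6, and 53 of the 59 separated the groups in none of the 5 comparisons.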

How the data were processed

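The authors deposited 1 peak list per library. BWA, MACS 1.4.2 and the hg19 build are named in the submitters' processing notes, with calling parameters, duplicate removal and transposase shifting not given in the sources used here. A score from the authors' peak caller accompanies each deposited peak, of unstated scale and never below 70, used for ranking and filtering inside each list alone. Gene bodies, rounded to the kb, came with the choice of genes. The members and lists were chosen with earlier results of these data known. Named regions were those over or within 2 kb of a 5′ end, those gained or lost in a comparison, and the one with the highest median percentile per gene.

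Exact two-sided permutation tests used 400 assignments, with Benjamini-Hochberg adjustment over all regions whose p could be under 1, or over the 7 windows and all 100 kb tiles. Alternatives were a minimum score of 100, lists of equal size, 50% coverage, windows of 10 and 100 kb, each library left out, and a replicate block. Those for DTP against PC9 called bases, and the narrower set of regions for adjustment, were added after seeing the data. Other pathway genes, listed for an hg19 annotation, were not placed here. Python 3.11.15, numpy 2.4.6 and pandas 2.3.3 were used; bedtools 2.31.1 gave the same number of merged regions, and the tests were checked on simulated data.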

Additional observations from a re-analysis of the deposited data

How the results depend on the processing

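Because 3 libraries stand in each group, counts of separated regions moved easily. In lists of equal size the regions gained were 0 in DTP and 0 with erlotinib in either fraction, and erlotinib lost 3 in the ALDH-low fraction and 1 in the ALDH-high fraction. Shortening took more peaks from erlotinib lists than from the DMSO lists of the same fraction, and ALDH-low DMSO lists were left almost whole. A minimum score of 100 gave 0 gained and 0 lost in DTP, 0 gained with erlotinib in either fraction, 0 lost in ALDH-low cells, and 1 gained and 1 lost for ALDH-high against ALDH-low with erlotinib. Requiring peaks to cover 50% of a region gave 4 lost in DTP, 0 gained in ALDH-low and 2 gained in ALDH-high cells with erlotinib, and 1 lost for ALDH-high against ALDH-low with erlotinib. Windows of 10 kb held 21 regions, with 0 gained and 0 lost in DTP, 0 gained in either fraction and 0 lost in ALDH-low cells. Windows of 100 kb held 90 regions, with 4 lost in DTP and 2 gained in ALDH-low cells. No genome share under these settings is given beside any of these counts.

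The single region less often called with erlotinib at an unadjusted p under 0.05 became 2 in lists of equal size and 0 with a score of at least 100 or 10 kb windows. With 50% coverage or 100 kb windows, 1 region was more often called. No genome share under these settings is given. In the lists as deposited 8.93% of 31082 regions were called more often and 1.16% less often at that threshold. Adjusting over only those regions able to reach an unadjusted exact permutation p under 0.05 was a choice made after seeing the data. With it, 1 of 6 such regions near the genes was less often called at an adjusted p under 0.05, and 0 more often. Over the genome, 360 of 6480 regions were less often called at that adjusted threshold and 2775 more often. The narrower set is thus no stricter than the unadjusted threshold.

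Erlotinib minus DMSO in called bases at STAT3 was 694 in lists of equal size, 1554 with a score of at least 100 and 1148 in 10 kb windows, and none of these passed the threshold. NFKB1 passed with 1053 (score of at least 100) and 710 (10 kb windows), and NFKBIA with 2331 (score of at least 100). No share of windows and tiles passing under these settings is given. TNFAIP3 was -2131 in lists of equal size, with an adjusted p of 0.180. The sign turned at IL6 (-604 in lists of equal size, -138 in 10 kb and -267 in 100 kb windows), CXCL8 (283 with a score of at least 100, 506 in 100 kb windows) and TNFAIP3 (113 in 10 kb windows). ALDH-high minus ALDH-low turned at CXCL8 (-166, -62.5 and -39.3 for equal size, score and 10 kb windows), STAT3 (-588 for equal size, -433 for score), IL6 (-50.7 for equal size) and TNFAIP3 (-74.7 in 10 kb windows). None of those signs belonged to a value that passed a test.

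DTP minus PC9 in called bases moved at IL6 (149 for equal size, 419 for score, -160 in 10 kb and -236 in 100 kb windows), NFKB1 (-1268 for equal size), NFKBIA (-1910 for equal size, 659 in 100 kb windows), TNFAIP3 (-2895 for equal size, -39 in 10 kb and -2890 in 100 kb windows), SOCS3 (-557 in 10 kb and -2512 in 100 kb windows) and CXCL8 (-707 in 100 kb windows).

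Libraries with the same letter showed little common deviation in their calls (correlations between -0.0148 and 0.0173 across the comparisons). With 3 libraries in a group this cannot show whether libraries of the same letter were prepared together. With a replicate block that exchanged only same-letter libraries the STAT3 difference stayed 2647 with an adjusted exact permutation p of 0.147, and 0 regions were less often called at an unadjusted p under 0.05. The block allows no exact p under 0.03125. It changed no other call.

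Leaving out each library in turn gave 1 to 2 gained and 2 to 5 lost in DTP, 1 to 3 gained and 1 to 2 lost in ALDH-low and 1 to 4 gained and 0 to 3 lost in ALDH-high cells with erlotinib. For ALDH-high against ALDH-low it gave 0 to 2 gained and 0 to 1 lost with DMSO, and 0 to 1 gained and 0 to 2 lost with erlotinib. Because a dropped library loosens the rule, these counts could only stay or rise, and no genome share under the looser rule is given. Regions more often called with erlotinib at an unadjusted p under 0.05 were 0 to 2. The STAT3 difference with erlotinib ranged over 2246 to 2909 bases, SOCS3 over 596 to 1696, TNFAIP3 over -1456 to -686, CXCL8 over -417 to 14.3 and IL6 over -120 to 525, and the fraction difference at STAT3 over -383 to 381 and at NFKB1 over 506 to 994. DTP minus PC9 at NFKB1 ranged over -1072 to -553. The cause of these changes was not tested.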
